A study of Drosophila melanogaster with 18 samples.

Results

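The comparison described here set fat bodies of M1BP RNAi larvae against those of WT larvae, both male and at the third instar feeding stage (L3F), with 2 RNA-seq libraries of each genotype. These are 4 of the 8 male RNA-seq libraries and 4 of the 18 samples of the series, and the members are all 11723 genes, of 17494 in the count table, that passed a filter on low counts. In M1BP RNAi (cgGal4>M1BP-RNAi) the fat body driver cgGal4 expressed a hairpin against M1BP from the Vienna KK collection, and in WT (cgGal4>WT) the same driver was crossed to wild type, so that both genotypes carried the driver. A second pair, cgGal4>M1BP-RNAi;HA::ZKSCAN3 (M1BP RNAi + ZKSCAN3) against cgGal4>HA::ZKSCAN3 (ZKSCAN3), in which vertebrate ZKSCAN3 is expressed in the same cells, was used to read the members in libraries that the first comparison does not contain. The libraries of this pair also entered the fit behind the calls below, through the filter, the scaling and the estimate of spread. Sample labels name the transgene of this pair HA::ZKSCAN3, whereas the paper describes myc-tagged ZKSCAN3 for its fly lines. RNA of 10 fat bodies with the gonads removed was pooled per preparation, larvae were reared at 25 °C on normal food, and cgGal4, described by the study as specific to the fat body, is also known to be active in blood cells. Only a single RNAi line was used.

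The larval fat body is the fly's counterpart of liver and adipose tissue, where sugars are turned into stored lipid and glycogen and from which most blood proteins and antimicrobial peptides are secreted. M1BP is a zinc finger protein that binds Motif 1, a sequence element of core promoters at many housekeeping genes, where RNA polymerase II pauses after initiation. In the fat body M1BP works with Hox proteins to hold back autophagy until the end of larval feeding, and the comparison asks which transcripts depend on it at the feeding stage.

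M1BP (3R: 8729790-8731698, dm6, minus strand), the targeted gene, had 6.57 and 7.03 CPM (read counts scaled to a common library total with edgeR's TMM factors) in replicates 1 and 2 of M1BP RNAi, against 15.7 and 17.0 CPM in WT. The genotypes did not overlap, and M1BP decreased by 1.27 on the log2 scale (SE 0.14, edgeR false discovery rate FDR = 0.00776), so that a part of the transcript remained. The teashirt family gene tio, which lies beside an insertion site used in some KK lines and can be driven from there by Gal4, had 3.74 and 3.59 CPM in M1BP RNAi, against 1.26 and 0.909 CPM in WT. It rose by 1.76 log2 units (SE 0.29, edgeR FDR = 0.0236), and its paralog tsh fell by 1.22 (SE 0.21, edgeR FDR = 0.0249). Whether the line carries that insertion is not given in the sources used here, and the part of tio in any other change was not tested.

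Total counts per library were 53462739 and 76798943 in M1BP RNAi, against 58792587 and 75828876 in WT, and 3 counts, the limit that a gene without reads allows, came to 0.0364 to 0.059 CPM, a limit that covers counting error only. The replicates of M1BP RNAi were further apart than those of WT: log2 levels of a gene differed between replicates with an SD over genes of 1.63 in M1BP RNAi and of 0.777 in WT. Markers of other tissues were high in replicate 1 of M1BP RNAi, and their part in the results was not tested. The summed level of 25 testis marker genes was 148 CPM in replicate 1 and 10.0 CPM in replicate 2 of M1BP RNAi, against 23.2 and 27.3 CPM in WT, and 21 of the 24 tested genes of that list were higher in replicate 1 only. Salivary gland markers (12 genes) reached 609 and 36.9 CPM in M1BP RNAi, against 14.9 and 7.66 CPM in WT, and midgut markers (31 genes) 1220 and 697 CPM in M1BP RNAi, against 263 and 231 CPM in WT. Salivary gland markers were also high in both M1BP RNAi + ZKSCAN3 libraries, with 591 and 822 CPM, against 17.4 and 32.1 CPM in ZKSCAN3. There testis markers had 9.52 and 7.96 CPM, against 24.9 and 42.3 CPM, and midgut markers 709 and 289 CPM, against 416 and 726 CPM. Muscle markers (16 genes) were lower, with 88.8 and 166 CPM in M1BP RNAi, against 369 and 477 CPM in WT. The fat body's own markers (10 genes) dominated every library, with 240000 and 303000 CPM in M1BP RNAi, against 402000 and 440000 CPM in WT, so the tissue label held. In such pooled tissue, fewer cells of a type and less RNA per cell cannot be told apart.

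**Figure D1:**
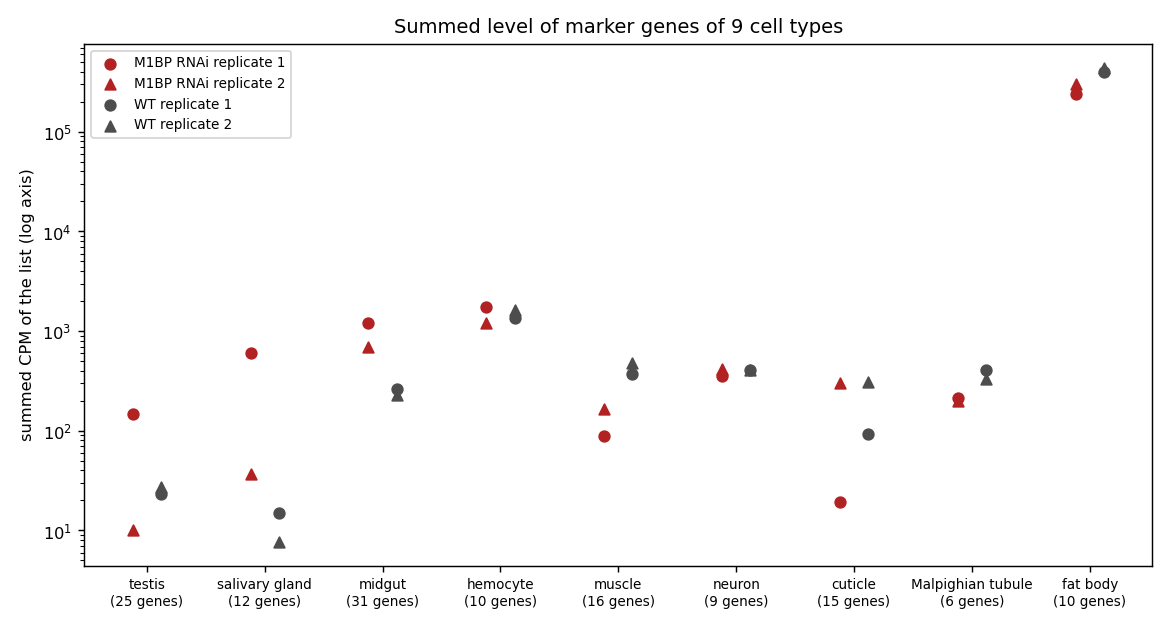
Summed CPM (log axis) of the marker genes of 9 cell types in the 2 M1BP RNAi libraries (red, left) and the 2 WT libraries (grey, right), with circles for replicate 1 and triangles for replicate 2. Testis markers stand at 148 CPM in M1BP RNAi replicate 1 and at 10.0 to 27.3 CPM in the other 3 libraries, while fat body markers exceed 240000 CPM or lie close to it in all 4.

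At FDR 0.05 in edgeR's quasi-likelihood test, 461 genes were higher and 503 lower in M1BP RNAi than in WT, which is 3.93% and 4.29% of the genes tested and 964 genes (8.22%) in all. These shares are the background for the counts of each gene list below. For counts at an unadjusted p under 0.05 the background is 3467 of the 11723 tested genes. The median log2 fold change was 1.92 for the higher genes, −1.40 for the lower genes and 0.112 for all tested genes. At the study's stricter FDR of 0.001 edgeR called 4 genes (0.0341%), PolZ2, CG3448, CG42362 and CG42363, all higher, whereas DESeq2 fitted to the 8 male libraries called 427 higher (3.64%) and 590 lower (5.03%) at that FDR. Of the edgeR genes, 392 of the 461 higher and 488 of the 503 lower were in those DESeq2 lists. The number of calls depended on single libraries: without WT replicate 1 edgeR called 9 genes higher and 1 lower, without WT replicate 2 it called 10 higher and 1 lower, without M1BP RNAi replicate 1 it called 90 higher and 24 lower, and without M1BP RNAi replicate 2 it called 936 higher and 588 lower.

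Each M1BP RNAi library was also set on its own against the mean of the WT libraries, on the scale log2(CPM + 0.5), where a gene counted as moved if it differed by at least 1 log2 unit and lay outside both WT libraries. In this reading, 624 genes (5.32%) were higher and 621 (5.30%) lower in both M1BP RNAi libraries, and of these 334 and 308 were among the edgeR calls. A further 1242 genes (10.6%) were higher in replicate 1 while differing by less than 0.5 in that direction in replicate 2, and edgeR called 0 of them at FDR 0.05. The remaining changes in a single library were 79 genes (0.674%) lower in replicate 1, and 32 higher and 36 lower in replicate 2. Of these classes, 13 genes moved in opposite directions in the 2 libraries and are counted once under each replicate. The genes named below as raised or lowered by the knockdown are those called by edgeR, and those seen in a single library are described apart.

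**Figure D2:**
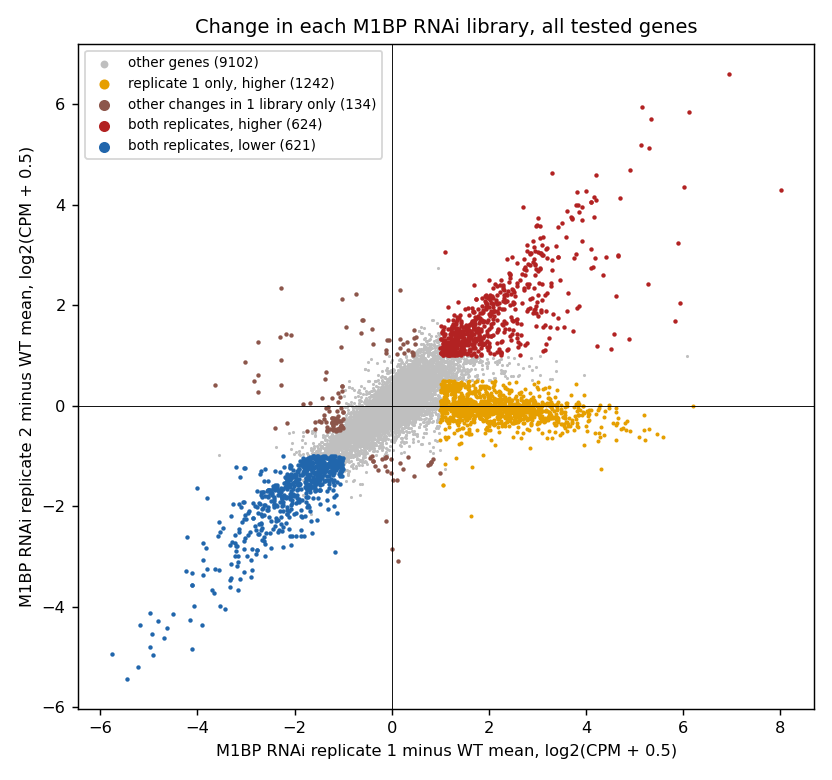
Difference of each M1BP RNAi library from the WT mean in log2(CPM + 0.5), replicate 1 on the horizontal and replicate 2 on the vertical axis, 1 point per tested gene. Along the diagonal lie the 624 genes higher (red) and the 621 genes lower (blue) in both libraries, and the orange band to the right at no change in replicate 2 holds the 1242 genes higher in replicate 1 only.

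Genes of DNA damage signalling and repair were the list with the most members raised. Of 31 tested, 12 rose and 0 fell, with a median log2 fold change of 0.92. PolZ2, a subunit of the translesion DNA polymerase zeta, had 29.6 and 31.7 CPM in M1BP RNAi, against 2.95 and 3.05 CPM in WT. It rose by 3.35 log2 units (SE 0.13, edgeR FDR = 6.90e-04), was one of the 4 genes called at FDR 0.001, and differed little between replicates of either genotype. The damage response factor p53 had 29.4 and 23.1 CPM in M1BP RNAi, against 2.89 and 3.52 CPM in WT (3.03, SE 0.24, edgeR FDR = 0.00379). In this unstranded count 38% of the exon bases of p53 are shared with an antisense RNA, asRNA:CR46089. The break-binding ATPase rad50 had 18.2 and 16.6 CPM in M1BP RNAi, against 2.40 and 2.19 CPM in WT (2.92, SE 0.20, edgeR FDR = 0.00326). Xpc, which recognises bulky lesions for nucleotide excision repair, had 47.0 and 42.4 CPM in M1BP RNAi, against 8.68 and 7.49 CPM in WT (2.47, SE 0.21, edgeR FDR = 0.00406). For each of these genes both M1BP RNAi libraries lay above both WT libraries by several fold. The other members that rose were mre11 and nbs, the partners of rad50, the end-joining factors Irbp and DNAlig4, the polymerases PolH and PolI, the photolyase phr and the excision nuclease mus201. The checkpoint kinase genes mei-41, tefu, lok and grp did not pass the test. Without M1BP RNAi replicate 1 the list had 5 members called higher and 0 lower, and without either WT library 1 higher. No member of the list was higher in replicate 1 only.

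Among genes of cell death, Corp, which is known to restrain p53 in flies, had 1.98 and 1.78 CPM in M1BP RNAi, against 0.315 and 0.114 CPM in WT, and rose by 3.13 (SE 0.69, edgeR FDR = 0.0473). The effector caspase Dcp-1 rose by 1.71 (SE 0.30, edgeR FDR = 0.0270), with 3.41 and 2.56 CPM in M1BP RNAi, against 1.02 and 0.796 CPM in WT. The Bcl-2 family gene Debcl fell by 0.89 (SE 0.16, edgeR FDR = 0.0300), and the other 11 of 14 tested genes of this list did not pass the test. None of 27 tested genes of DNA replication and the endocycle was called by edgeR, where 5 had an unadjusted p under 0.05, and DESeq2 with 8 libraries called 0 at FDR 0.001.

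Heat-shock genes had a median log2 fold change of 2.14, the highest of the pathway lists, but only 3 of 18 passed the test, all upwards. Hsp26, a small chaperone, had 28 and 25.6 CPM in M1BP RNAi, against 1.12 and 0.958 CPM in WT (4.69, SE 0.23, edgeR FDR = 0.00103). Hsp70Ab had 3.41 and 4.74 CPM in M1BP RNAi, against 0 and 0.146 CPM in WT (edgeR FDR = 0.0406), and Hsp70Bbb had 20 and 30 counts in M1BP RNAi, against 0 and 0 in WT. The Hsp70 genes are near-identical copies between which uniquely mapped reads can be split, so the value of a single copy is uncertain. Of 18 genes of the unfolded protein and integrated stress responses, 2 rose and 0 fell: trbl, the tribbles pseudokinase, by 2.12 (SE 0.25, edgeR FDR = 0.0102) and Irbp18, a bZIP factor that pairs with Xrp1, by 1.40 (SE 0.15, edgeR FDR = 0.00785). Their levels were 125 and 118 CPM for trbl in M1BP RNAi, against 26.6 and 29.5 CPM in WT.

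Antimicrobial peptide genes moved in opposite directions. Of 24 tested, 6 rose, Drs, Drsl5 and the bomanins BomS2, BomS3, BomT2 and BomBc1, and 2 fell, AttA and AttB. Drs and the bomanins are known targets of the Toll pathway and the attacins of the Imd pathway. Drs (drosomycin) had 49.4 and 15.2 CPM in M1BP RNAi, against 0.394 and 0.162 CPM in WT (6.88, SE 1.1, edgeR FDR = 0.0232). BomS3 had 13.4 and 13.2 CPM in M1BP RNAi, against 0.177 and 0.373 CPM in WT (5.55, SE 0.90, edgeR FDR = 0.0218). AttB had 0.802 and 0.922 CPM in M1BP RNAi, against 3.07 and 3.93 CPM in WT, and fell by 2.02 (SE 0.27, edgeR FDR = 0.0133). The 6 raised genes, picked by their calls in these same libraries, together had 69.2 and 33.9 CPM in M1BP RNAi, against 1.26 and 1.07 CPM in WT. The whole list, genes that fell included, summed to 157 and 252 CPM in M1BP RNAi, against 464 and 649 CPM in WT. Upstream of these peptides, 6 of 27 genes of immune recognition and NF-kB signalling fell and 0 rose. The serine protease grass, which acts ahead of Toll, had 54.3 and 48.7 CPM in M1BP RNAi, against 188 and 245 CPM in WT (−2.07, SE 0.33, edgeR FDR = 0.0203). PGRP-LD fell by 1.62, but 90.0% of its exon bases are shared with Pmi, which fell by 1.62 as well, and the 2 genes cannot be told apart. Among hemocyte markers, 2 of 10 rose, He with 25.6 and 25.4 CPM in M1BP RNAi, against 6.81 and 5.76 CPM in WT, and Sr-CI with 17.4 and 22.4 CPM in M1BP RNAi, against 5.31 and 7.89 CPM in WT. Of the 10 hemocyte markers 9 had positive values (median 1.52), 8 had an unadjusted p under 0.05 and 7 were higher in both M1BP RNAi libraries, among them the phagocytosis receptor gene eater with 35.2 and 20 CPM in M1BP RNAi, against 7.16 and 6.11 CPM in WT (edgeR FDR = 0.0908). The summed level of the hemocyte list was 1740 and 1210 CPM in M1BP RNAi, against 1340 and 1630 CPM in WT, and the part of blood cells in the immune changes was not tested.

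Of 19 secreted growth and nutrient signals, 4 rose. The cytokine upd3, a ligand of the JAK/STAT pathway, had 0.802 and 1.08 CPM in M1BP RNAi, against 0.0394 and 0.0325 CPM in WT, where 3 counts allow up to 0.059 CPM. The growth factor Pvf2 had 5.49 and 3.48 CPM in M1BP RNAi, against 0.0787 and 0.146 CPM in WT (5.28, SE 0.83, edgeR FDR = 0.0198), and Pvf3 rose by 1.61 (SE 0.29, edgeR FDR = 0.0288). NLaz, a lipocalin known to dampen insulin signalling, had 13.8 and 7.57 CPM in M1BP RNAi, against 0.394 and 0.747 CPM in WT (4.21, SE 0.66, edgeR FDR = 0.0198). WT levels of all 4 were low, and both M1BP RNAi libraries lay above both WT libraries for each. Idgf6, a chitinase-like growth factor, fell by 0.80 (SE 0.18, edgeR FDR = 0.0481), with 906 and 1150 CPM in M1BP RNAi, against 1770 and 1811 CPM in WT.

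Arc1, which encodes a capsid protein derived from a retrotransposon and has been linked to fat metabolism in larvae, was the most abundant transcript among the genes with the largest increases. It had 6741 and 5579 CPM in M1BP RNAi, against 72.8 and 128 CPM in WT (5.94, SE 0.44, edgeR FDR = 0.00342). Per length this is a level of 5470 ± 1350 TPM (length-normalised level, SD, n = 2) in M1BP RNAi and 64.0 ± 22.2 TPM in WT. CR10102, the neighbouring gene model upstream of Arc1 on the same strand of 2R, had 192 and 150 CPM in M1BP RNAi, against 0.590 and 1.71 CPM in WT (7.20, SE 0.84, edgeR FDR = 0.00980). The 2 models share no exon bases. eIF6, which is needed to mature the large ribosomal subunit, had 154 and 132 CPM in M1BP RNAi, against 8.93 and 10.6 CPM in WT (3.87, SE 0.19, edgeR FDR = 0.00106). It was the only called gene of 19 in the ribosome production list, where 18 had positive values and the median was 0.83.

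Of the other genes with the largest increases, 3 are ecdysteroid kinase-like genes that lie close together on 3R. CG11893 had 651 and 679 CPM in M1BP RNAi, against 15.7 and 20.7 CPM in WT, CG31288 had 239 and 307 CPM in M1BP RNAi, against 6.00 and 4.85 CPM in WT, and CG13659 had 129 and 169 CPM in M1BP RNAi, against 5.83 and 7.36 CPM in WT. Their log2 fold changes were 5.19, 5.65 and 4.50, and in each the M1BP RNAi libraries lay close together and far above WT. The fatty acyl-CoA reductase gene wat, the phosphate transporter gene NaPi-III, the tubulin gene alphaTub85E and CG6293 rose by 4.84, 4.82, 4.67 and 6.5. CG43402, CG1208 and lncRNA:CR44459 rose by 5.75, 5.32 and 5.50, and lncRNA:CR44459 lies wholly within the exons of lncRNA:CR44458, with which it shares its reads. For CG6293, 25.5% of the exon bases are shared with Nuak.

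**Figure D3:**
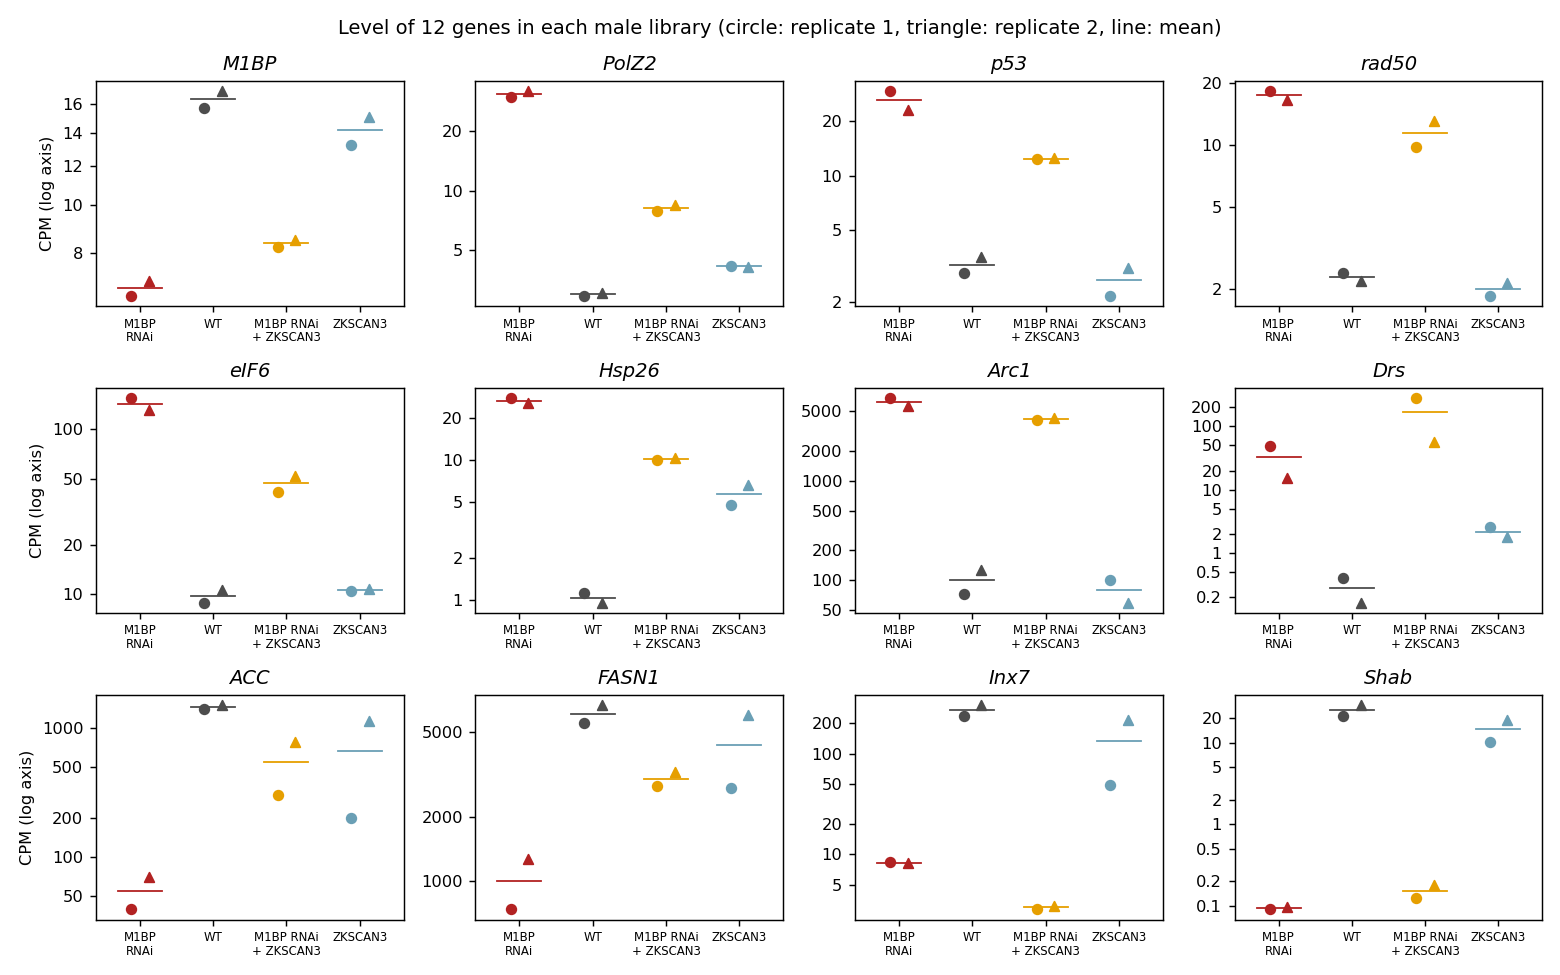
CPM (log axis) of 12 genes in each of the 8 male libraries, with circles for replicate 1, triangles for replicate 2 and a line at the mean of 2. PolZ2, p53, rad50, eIF6, Hsp26, Arc1 and Drs are higher in both M1BP RNAi libraries (red) than in both WT libraries (dark grey), and M1BP, ACC, FASN1, Inx7 and Shab are lower.

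Genes of fat synthesis were the list with the most members lowered. Of 20 tested, 10 fell and 0 rose, 19 had negative values, and the median log2 fold change was −1.46. ACC, acetyl-CoA carboxylase, the committed step of fatty acid synthesis, had 39.4 and 69.8 CPM in M1BP RNAi, against 1393 and 1504 CPM in WT, and fell by 4.73 (SE 0.94, edgeR FDR = 0.0369). FASN1, the main fatty acid synthase of the fat body, had 740 and 1274 CPM in M1BP RNAi, against 5508 and 6736 CPM in WT (−2.60, SE 0.45, edgeR FDR = 0.0263). AcCoAS, which makes acetyl-CoA from acetate, had 215 and 439 CPM in M1BP RNAi, against 2155 and 2627 CPM in WT (−2.87, SE 0.49, edgeR FDR = 0.0248). Both M1BP RNAi libraries lay well below WT for each gene, with replicate 1 the lower. Desat1, the fatty acid desaturase, fell by 1.80 (SE 0.31, edgeR FDR = 0.0246), and mino and Agpat3, which add acyl chains to glycerol phosphate, fell by 1.15 (SE 0.13, edgeR FDR = 0.00901) and 1.03 (SE 0.15, edgeR FDR = 0.0170). The others that fell were Agpat2, Acsl, Seipin and SREBP, the last a transcription factor for lipogenic genes. Without M1BP RNAi replicate 1, or without either WT library, 0 of the 20 passed FDR 0.05 in edgeR, while the list's median stayed at −1.2 without M1BP RNAi replicate 1, and DESeq2 with 8 libraries called 11 lower at FDR 0.001.

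Several lists of energy metabolism had negative medians. Of 19 genes of the TCA cycle and pyruvate entry 6 fell, 0 rose and all 19 had negative values (median −1.17). Pdhb, a subunit of pyruvate dehydrogenase, had 64.1 and 83.8 CPM in M1BP RNAi, against 194 and 201 CPM in WT (−1.42, SE 0.28, edgeR FDR = 0.0369). PCB, pyruvate carboxylase, fell by 1.37, Mdh2, malate dehydrogenase, by 1.2 and Ogdh, a 2-oxoglutarate dehydrogenase subunit, by 1.16. Of 13 glycolytic genes 3 fell and 0 rose (median −1.29): Pgi by 2.12, Tpi by 1.32 and Gapdh1 by 0.95. In the list of 85 oxidative phosphorylation subunits 72 had negative values (median −1.13) but only 4 fell, among them COX7A by 1.6, ND-75 by 1.28 and ND-49 by 1.24. COX6AL2 rose by 1.26 (edgeR FDR = 0.0487), although 67.0% of its exon bases are shared with Ir75d, and replicate 1 alone was higher for 10 of the 85, beside 10.6% of all tested genes. Without M1BP RNAi replicate 1 none of the TCA, glycolysis or oxidative phosphorylation genes was called by edgeR, and the medians of these lists were −0.97, −1.03 and −0.99.

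Lists for storage of sugar and use of fat showed the same direction. AGBE, the glycogen branching enzyme, had 41.3 and 72.0 CPM in M1BP RNAi, against 668 and 786 CPM in WT (−3.68, SE 0.60, edgeR FDR = 0.0218). It was the only called gene of 9 in the glycogen and trehalose list, where 8 had negative values (median −0.91). Of 15 genes of fat breakdown 5 fell and 0 rose: Echs1 by 2.27, Acox57D-p by 1.45, colt by 1.25, scu by 1.2 and Mtpalpha by 1.03, all enzymes or carriers of fatty acid oxidation. In peroxisome assembly 2 of 13 fell, Pex5 and Pex6. Of 21 antioxidant genes 4 fell and 0 rose, namely the superoxide dismutases Sod1 (−1.25), Sod2 (−1.2) and Sod3 (−0.72) and the malic enzyme Men (−2.04). Men had 224 and 394 CPM in M1BP RNAi, against 1177 and 1355 CPM in WT. The larval serum proteins, the most abundant transcripts of the tissue, did not pass the test: Lsp1beta had 59440 and 82950 CPM in M1BP RNAi, against 129500 and 138300 CPM in WT (−0.91, SE 0.25, edgeR FDR = 0.0779).

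**Figure D4:**
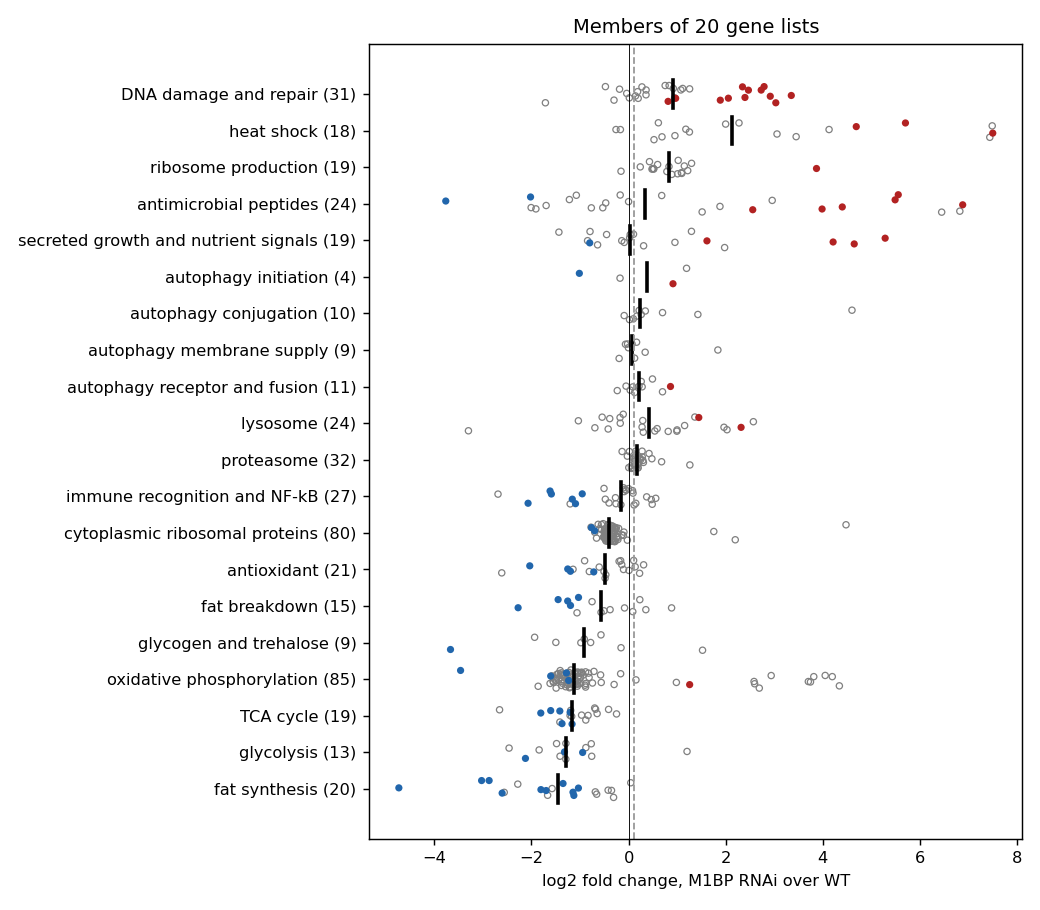
Log2 fold change of M1BP RNAi over WT for the members of 20 gene lists, 1 point per tested gene (numbers in brackets), filled where edgeR called the gene at FDR 0.05 (red higher, blue lower). Black bars mark the list medians, which run between 2.14 for heat shock and −1.46 for fat synthesis, and the dashed line marks the median of all tested genes, 0.112.

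Among the genes with the largest decreases was Shab, a voltage-gated potassium channel gene, which had 0.0908 and 0.0971 CPM in M1BP RNAi, against 21.6 and 29.3 CPM in WT (−8.05, SE 0.47, edgeR FDR = 0.00221). The M1BP RNAi levels correspond to 6 and 8 counts and stood just above the limit that 3 counts allow. Ork1, a potassium leak channel, had 2.65 and 5.24 CPM in M1BP RNAi, against 103 and 95.3 CPM in WT (−4.65, SE 0.62, edgeR FDR = 0.0133). Inx7, a gap junction protein, had 8.35 and 8.18 CPM in M1BP RNAi, against 234 and 305 CPM in WT (−5.03, SE 0.71, edgeR FDR = 0.0151). In these 3 genes the replicates of M1BP RNAi agreed closely compared with the distance to WT. Nox, the NADPH oxidase, had 0.878 and 1.95 CPM in M1BP RNAi, against 70.9 and 77.9 CPM in WT (−5.71, SE 0.87, edgeR FDR = 0.0187). Mipp1, an inositol polyphosphate phosphatase, had 3.16 and 3.34 CPM in M1BP RNAi, against 94.4 and 92.9 CPM in WT (−4.85, SE 0.48, edgeR FDR = 0.00600). The carbonic anhydrase CAH9, the tetraspanin Tsp42Eh, the acyl-CoA synthetase family gene Acsx1R, pst and bnb decreased by 5.54, 4.61, 5.79, 4.06 and 4.14. The remaining 4, CG45060, CG6602, CG34194 and hlk, decreased by 5.31, 4.56, 3.92 and 4.22.

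Families that metabolise foreign and hormone-like molecules were split. Of 77 cytochrome P450 genes 7 rose and 7 fell. Cyp12d1-d had 26.5 and 35.7 CPM in M1BP RNAi, against 1.59 and 1.23 CPM in WT (4.46, SE 0.40, edgeR FDR = 0.00466), and Cyp12c1 had 640 and 673 CPM in M1BP RNAi, against 138 and 165 CPM in WT (2.12, SE 0.19, edgeR FDR = 0.00438). Cyp4p3 had 2.26 and 2.62 CPM in M1BP RNAi, against 25.9 and 22.9 CPM in WT (−3.32, SE 0.38, edgeR FDR = 0.00891). The summed level of the family was 3600 and 3670 CPM in M1BP RNAi, against 3610 and 3630 CPM in WT. Of 35 glutathione transferases 3 rose (GstD3, GstE6 and GstD9) and 2 fell (GstT4 and Mgstl), and of 27 UDP-glycosyltransferases 2 rose (Ugt302K1 and Ugt49C1) and 1 fell (Ugt35A1). The ABC subfamily C transporters rdog and CG31793 rose by 1.77 and 3.07, the only calls among 15.

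Autophagy is the subject of the study, and edgeR called 3 of 34 tested genes in the 4 autophagy lists (8.82%), a share near that of all tested genes (8.22%). Of 4 genes of the Atg1 initiation complex, Atg17 rose by 0.91 and Atg13 fell by 1.01, and of 11 receptor and fusion genes lt, a subunit of the HOPS tethering complex, rose by 0.85 (SE 0.17, edgeR FDR = 0.0402). In the membrane supply list (9 genes) and the conjugation list (10 genes) edgeR called none, 2 of each had an unadjusted p under 0.05, and DESeq2 with 8 libraries called 0 in either at FDR 0.001. Most genes of the conjugation list were positive (9 of 10), with a median of 0.239 beside 0.112 for all tested genes. Among the positive genes was Atg8b, which was higher in replicate 1 only. The list summed to 420 and 343 CPM in M1BP RNAi, against 256 and 270 CPM in WT. Much of that sum was Atg8a, with 246.5 and 197.4 CPM in M1BP RNAi, against 134.7 and 138.7 CPM in WT. Atg18b, which binds the phosphoinositide of the forming membrane, had 76.5 and 62 CPM in M1BP RNAi, against 16.8 and 21.9 CPM in WT (1.84, SE 0.48, edgeR FDR = 0.0692). Atg7, Atg1 and Atg8a had values of 1.43, 1.19 and 0.70, with an unadjusted p under 0.05 in edgeR and an FDR of 0.141, 0.147 and 0.153. In these 4 genes both M1BP RNAi libraries lay above both WT libraries without passing the test. In each, M1BP RNAi replicate 1 was higher than replicate 2. Atg7 had 43.82 and 17.96 CPM in M1BP RNAi, against 11.93 and 11.04 CPM in WT. Atg1 had 61.72 and 33.45 CPM in M1BP RNAi, against 20.33 and 21.27 CPM in WT. The 4 genes were named for small p-values, so their lack of overlap is no separate evidence. The part of replicate 1 in these values was not tested. The autophagy receptor gene ref(2)P had 197 and 160 CPM in M1BP RNAi, against 97.8 and 122 CPM in WT (0.70, SE 0.24, edgeR FDR = 0.120), so its genotypes did not overlap but the difference did not pass the test. Of 24 tested genes in the lysosome list 2 rose, Swim, a cathepsin B-like protein, by 2.32 (SE 0.33, edgeR FDR = 0.0151) and Hexo2, a hexosaminidase, by 1.45 (SE 0.25, edgeR FDR = 0.0270). Of the vacuolar proton pump 0 of 25 genes was called, with 8 at an unadjusted p under 0.05, beside 3467 of all 11723 tested genes. In M1BP RNAi replicate 1 only, 6 of the 25 were higher, beside 10.6% of all tested genes.

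Of 27 genes of insulin and TOR signalling, 3 rose and 1 fell. Lst8, a TORC1 subunit, rose by 0.93, the PI3-kinase adaptor Pi3K21B by 0.85 and the AMPK subunit SNF4Agamma by 0.83, while Rheb, the GTPase that activates TORC1, fell by 0.76 (SE 0.14, edgeR FDR = 0.0288). Rheb had 23.5 and 22.4 CPM in M1BP RNAi, against 39.2 and 38.4 CPM in WT. Among 24 ecdysone response genes MsrA rose by 1.18 (edgeR FDR = 0.0469). In the second pair MsrA was called the other way, with 25.6 and 17.4 CPM in M1BP RNAi + ZKSCAN3, against 85.3 and 70.4 CPM in ZKSCAN3 (−1.86, edgeR FDR = 0.0225). Eip78C, an early ecdysone receptor target, had 16.5 and 2.66 CPM in M1BP RNAi, against 0.177 and 0.211 CPM in WT without passing the test (SE 1.72, edgeR FDR = 0.0969). Cytoplasmic ribosomal proteins had negative values in 77 of 80 genes (median −0.40), of which RpL3 and RpL22 passed the test. Of the general promoter and insulator factors, Trf2, the TBP-related factor used at housekeeping promoters, rose by 0.93 (SE 0.17, edgeR FDR = 0.0297), with 73.3 and 61.2 CPM in M1BP RNAi, against 34.2 and 36.1 CPM in WT, and M1BP itself was the only gene that fell among 20. No Hox gene or cofactor (6 tested, 2 at an unadjusted p under 0.05) and no factor of pausing and elongation (16 tested, 3 under 0.05) was called by edgeR, nor by DESeq2 with 8 libraries at FDR 0.001.

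Genes that moved in a single M1BP RNAi library formed a separate class. The 1242 genes higher in replicate 1 only were mostly scarce, with a median of 2.40 CPM in that library, and 100 of them reached 10 CPM in at least 1 of the 4 libraries. Together they summed to 6280 and 1110 CPM in M1BP RNAi, against 1140 and 923 CPM in WT. The largest differences were those of santa-maria, S-Lap1, S-Lap3, CG4836, loopin-1 and salto. S-Lap1, a leucyl aminopeptidase of sperm, had 58.5 and 0.400 CPM in M1BP RNAi, against 1.85 and 0.260 CPM in WT, and salto had 31.4 and 0.267 CPM in M1BP RNAi, against 0.866 and 0.0487 CPM in WT. For S-Lap1 and salto the second library lay between the WT libraries. That replicate 1 stood clearly above WT and the second library did not, here and in the sums, follows from how the class was chosen. The scavenger receptor gene santa-maria had 2474 and 1 counts in M1BP RNAi, against 0 and 2 in WT. Atg8b, an Atg8 gene known to act in the testis, had 1.44 and 0.0243 CPM in M1BP RNAi, against 0.0590 and 0 CPM in WT, and belonged to this class.

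The genes lower in replicate 1 only included the larval cuticle genes Lcp2, Lcp3 and Lcp4 with CG13731 and CG32249. Lcp4 had 6.5 and 105 CPM in M1BP RNAi, against 31.3 and 104 CPM in WT, so the WT replicates differed as well, and the cuticle list summed to 19.4 and 300 CPM in M1BP RNAi, against 92.6 and 306 CPM in WT. Replicate 2 alone was higher for Srr and lncRNA:CR34335 and lower for Cyp6d5 and Mst77F. Lcp1, with 6.17 and 80.3 CPM in M1BP RNAi, against 16.2 and 53.7 CPM in WT, moved in opposite directions in the 2 libraries. Srr had 57.8 and 131 CPM in M1BP RNAi, against 52.7 and 50.4 CPM in WT. Salivary gland genes were not confined to that class: Sgs3, a glue protein gene, had 308 and 17.0 CPM in M1BP RNAi, against 6.89 and 3.43 CPM in WT, so that both libraries lay above WT, and Sgs5bis was called higher (edgeR FDR = 0.0311).

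The second pair of genotypes shares no library with the first, though it carries the same RNAi line and was fitted together with it. Its libraries thus also entered the estimate of spread behind the calls in the first pair. In M1BP RNAi + ZKSCAN3 against ZKSCAN3, 328 genes (2.80%) were called higher and 186 (1.59%) lower by edgeR with the same threshold. Of the 461 genes called higher in M1BP RNAi against WT, 429 (93.1%) had a positive value in the second pair and 179 were called higher there, while 47.9% of all tested genes were positive. Of the 503 called lower, 456 (90.7%) had a negative value in the second pair and 116 were called lower there, while 52.1% of all tested genes were negative. In each direction 2 genes were called the other way, MsrA among the higher ones. The sizes were smaller in the second pair, with a median log2 fold change of 1.06 for the higher genes, against 1.92 in the first pair, and −0.64 for the lower genes, against −1.40 in the first pair. ZKSCAN3 replicate 1 resembled the knockdown for some of the lowered genes, with 202 CPM of ACC and 2735 CPM of FASN1, against 1120 and 6006 CPM in ZKSCAN3 replicate 2. Without ZKSCAN3 replicate 1 the shares with the same sign were 93.9% for the higher and 93.6% for the lower genes, with 50 and 51 genes called the same way.

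In the second pair the repair genes kept their direction. PolZ2 had 7.93 and 8.47 CPM in M1BP RNAi + ZKSCAN3, against 4.17 and 4.13 CPM in ZKSCAN3 (0.98, edgeR FDR = 0.0188), rad50 had 9.74 and 13.1 CPM, against 1.86 and 2.13 CPM in ZKSCAN3 (2.52, edgeR FDR = 0.00743), and p53 had 12.4 and 12.5 CPM, against 2.16 and 3.09 CPM in ZKSCAN3 (2.25, edgeR FDR = 0.0129). Of the 31 genes of that list 8 rose and 0 fell. Arc1, Shab and Inx7 also changed as in the first pair, by 5.68, −6.53 and −5.48. The metabolic lists were mixed. Of fat breakdown 5 of 15 fell in the second pair, with a list median of −1.08 against −0.57 in the first pair, and of peroxisome assembly 5 of 13 fell (median −0.32). Of fat synthesis 1 of 20 fell, with a list median of −0.43, ACC had a value of −0.29 (edgeR FDR = 0.851) and FASN1 of −0.52 (edgeR FDR = 0.506), and 0 of 19 TCA cycle genes was called (median 0.14). No gene of oxidative phosphorylation, glycolysis or glycogen and trehalose was called there either, with list medians of 0.09, 0.06 and −0.01. Oxidative phosphorylation summed to 6270 and 9730 CPM in M1BP RNAi + ZKSCAN3, against 4990 and 9630 CPM in ZKSCAN3. The sums were 5140 and 7550 CPM, against 6420 and 8890 CPM, for glycolysis. For glycogen and trehalose they were 1630 and 1620 CPM, against 2110 and 2180 CPM. The part of ZKSCAN3 replicate 1 in these medians was not tested. Of the 10 hemocyte markers 0 rose and 1 fell in the second pair, with a median of −0.83 against 1.52 in the first. Whether these lists differed between the pairs was tested only gene by gene, and of all 11723 genes 3 (0.0256%) differed, PolZ2, Hsp26 and Drsl5. The gene tio had 2.26 and 2.72 CPM in M1BP RNAi + ZKSCAN3, against 0.725 and 0.769 CPM in ZKSCAN3 (1.73, edgeR FDR = 0.0349).

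**Figure D5:**
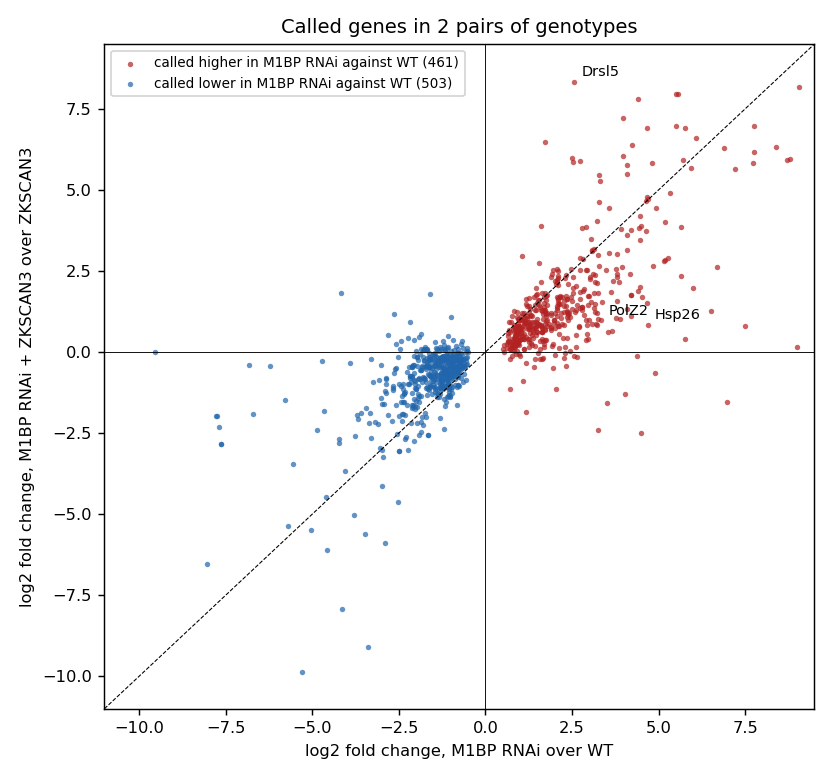
Log2 fold change of the 461 higher (red) and 503 lower (blue) genes in M1BP RNAi over WT (horizontal) and in M1BP RNAi + ZKSCAN3 over ZKSCAN3 (vertical), with a dashed line of equal change. Most red points (93.1%) lie above and most blue points (90.7%) below 0 on the vertical axis, nearer to 0 than the line, and Drsl5, PolZ2 and Hsp26 are the genes whose 2 values differed in the test.

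M1BP binds Motif 1, so the promoters of the called genes, 250 bases before to 50 after the outermost annotated start, were searched for its core GGTCACACT on either strand. It occurred in 33 of 461 genes called higher (7.16%, 95% Wilson interval 5.14 to 9.88), in 46 of 503 called lower (9.15%, 6.93 to 12) and in 846 of 11672 tested genes with a mapped promoter (7.25%). The interval of either group of called genes contained the share of all genes. With the shorter core GGTCACAC, the share of 12.9% in genes called lower (95% Wilson interval 10.3 to 16.1) had an interval above the 9.23% of all tested genes, while that of 9.76% in genes called higher (7.38 to 12.8) did not. A peak of HA::ZKSCAN3, mapped in S2 cells and not in fat body, lay within 500 bases of the start in 69.8% of the genes called higher (95% Wilson interval 65.5 to 73.9) and 72.0% of those called lower (67.9 to 75.7), and in 63.7% of all tested genes, a share below both intervals. These intervals cover counting error only.

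The matches are shown for the 3 higher and the 3 lower genes with the smallest p among those moved in both M1BP RNAi libraries whose match lies before the start in sequence free of annotated exons, a choice made after the values were seen. Each line runs 5′ to 3′ towards the gene, from the NCBI RefSeq copy of the release 6 genome (dm6), and capitals mark the Motif 1 core or its reverse complement.
obe (chr3R:15485969-15486049, plus strand): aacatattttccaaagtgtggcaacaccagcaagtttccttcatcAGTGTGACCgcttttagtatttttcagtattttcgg
unc-119 (chrX:7291353-7291451, minus strand): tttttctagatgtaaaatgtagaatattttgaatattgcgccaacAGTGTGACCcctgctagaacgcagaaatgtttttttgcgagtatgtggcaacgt
CG15601 (chrX:15710590-15710646, plus strand): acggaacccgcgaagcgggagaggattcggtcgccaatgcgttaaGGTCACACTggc
nst (chr3L:12530172-12530247, minus strand): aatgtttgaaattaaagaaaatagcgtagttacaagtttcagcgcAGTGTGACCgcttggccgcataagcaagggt
CG9855 (chr3R:4397893-4397991, minus strand): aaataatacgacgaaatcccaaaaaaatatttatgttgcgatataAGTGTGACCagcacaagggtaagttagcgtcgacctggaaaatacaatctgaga
Mpc1 (chr3R:18928660-18928744, minus strand): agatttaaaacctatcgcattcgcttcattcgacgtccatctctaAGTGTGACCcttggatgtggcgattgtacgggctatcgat

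The cores began 36, 108, 12, 31, 71 and 40 bases before the starts of obe, unc-119, CG15601, nst, CG9855 and Mpc1. All 6 genes had a ZKSCAN3 peak within 500 bases of the start, as did 63.7% of all tested genes. That the core stood before genes that rose and genes that fell follows from how the 6 were chosen. obe had 58.0 and 63.3 CPM in M1BP RNAi, against 26 and 28.4 CPM in WT (1.16, SE 0.15, edgeR FDR = 0.0115), while nst, an enzyme of UDP-N-acetylglucosamine synthesis, had 13 and 13.2 CPM in M1BP RNAi, against 44.6 and 45.9 CPM in WT (−1.79, SE 0.14, edgeR FDR = 0.00391). Mpc1, the mitochondrial pyruvate carrier, fell by 2.20, CG9855 fell by 1.1, unc-119 rose by 1.54 and CG15601 rose by 2.46. A match to the core is a description of the sequence, and binding of M1BP at these starts in fat body was not measured.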

How the data were processed

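Read counts per gene, as deposited by the authors, come from unique alignments to dm6 (Subread) tallied over FlyBase release 6.19 exons by featureCounts 1.6.1, ignoring strand, with a read assigned to every gene it overlaps. The deposited table holds 17494 genes, and 11723 passed edgeR's filterByExpr. The score column of the deposited ZKSCAN3 peak list (authors' MACS2 calls at an irreproducible discovery rate of 1%) was not used. The deposited tables of log2 fold changes with their p-value columns hold the authors' own comparisons and were not used.

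All 8 male libraries were fitted with edgeR 4.0.16 in R 4.3.3 (TMM, quasi-likelihood test, Benjamini-Hochberg adjustment, FDR 0.05). Alternatives were DESeq2 1.42.0, other scalings and filters, the replicate number as a block, and each library left out in turn. The study's threshold of 0.001 was an alternative because edgeR called few genes there. TPM was computed here from counts and exon lengths. Simulated counts with known changes were used to check that the fit runs as intended. They had the same spread in every library, so they do not cover a deviating replicate. Gene symbols were taken from the reference annotation (17358 matched). P-values measure the spread between 2 libraries a genotype, estimated over all 8 male libraries, each from pooled animals.

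Members and gene lists were chosen with earlier results of these data known. Named were M1BP, tio and tsh, the 15 largest increases and decreases among called genes moved in both M1BP RNAi libraries with a mean of at least 10 CPM in the higher genotype, the 4 smallest p-values of each list with all called members where 5 or fewer were called, and 6 genes per library and direction among those moved in 1 library. Other genes were named after their values were seen, to complete a count.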

Additional observations from a re-analysis of the deposited data

Results flagged for a closer look

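For 3 of 11723 genes the effect of M1BP RNAi differed between the pair without ZKSCAN3 (M1BP RNAi against WT) and the pair with it (M1BP RNAi + ZKSCAN3 against ZKSCAN3), by an interaction term in edgeR at FDR 0.05 (FDR = 0.0292 for each). At an unadjusted p under 0.05 there were 2083 such genes. PolZ2 rose by 3.35 without and 0.98 with ZKSCAN3, a difference of 2.37 log2 units (SE 0.18). Hsp26 had 10.1 and 10.4 CPM in M1BP RNAi + ZKSCAN3, against 4.77 and 6.69 CPM in ZKSCAN3, a value of 0.84 that did not pass the test (edgeR FDR = 0.0659), and its effect without ZKSCAN3 was larger by 3.85 (SE 0.29). Drsl5, a drosomycin-like peptide gene, went the other way, with a difference of −5.79 (SE 0.37): it had 110 and 172 CPM in M1BP RNAi + ZKSCAN3, against 0.46 and 0.404 CPM in ZKSCAN3, while it had 3.04 and 2.86 CPM in M1BP RNAi, against 0.531 and 0.471 CPM in WT. The replicates of each genotype lay close together for all 3 genes. The cause was not tested.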

How the results depend on the processing

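No named gene changed direction while called under any of the alternatives. The number of genes called in M1BP RNAi against WT was 1412 higher and 1493 lower with DESeq2 on all 8 male libraries, 993 and 1142 with edgeR on only the 2 genotypes compared, 1524 and 1721 with DESeq2 on only those 2 (729 and 980 of them at FDR 0.001), and 4 and 0 at FDR 0.001, against 461 and 503. Leaving out each library gave between 9 and 936 genes higher and between 1 and 588 lower, the low end without a WT library and the high end without M1BP RNAi replicate 2. In M1BP RNAi + ZKSCAN3 against ZKSCAN3, 514 genes were called, 1806 with DESeq2 on all 8 libraries, 1186 with DESeq2 and 14 with edgeR on only those 2 genotypes, 0 at FDR 0.001, and between 83 and 1241 with each library left out. At FDR 0.001 the difference between the pairs was called for 0 genes. The fall of M1BP lay between −1.39 and −1.21 with each library left out, and passed FDR 0.05 only without M1BP RNAi replicate 2. Of 126 called genes named by the rule, leaving out WT replicate 1 or 2 removed the call for 122 or 121, leaving out M1BP RNAi replicate 1 or 2 for 101 or 23, and DESeq2 on 8 libraries for 0. With a difference of 2 log2 units, 620 genes were higher and 14 lower in replicate 1 only, and 4 higher and 4 lower in replicate 2 only. With the 8 base core GGTCACAC the share of promoters with a match was 12.9% for lower genes, whose interval (10.3 to 16.1) then no longer contained the share of all tested genes, 9.76% for higher genes and 9.23% for all tested genes, and with 1000 bases a ZKSCAN3 peak lay near 66.7% of all tested genes. The causes of these differences were not tested. With the replicate number as a block, edgeR called 643 genes higher and 893 lower. The deviations of same-numbered M1BP RNAi and WT libraries correlated at 0.444, and those of the other pairs of genotypes between -0.217 and 0.209. No link between same-numbered libraries is stated in the sources used here, and whether they share a batch was not tested.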

Other observations

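Called genes lay next to each other more often than tested genes in general. Of the 461 genes called higher, 69 (15%) had an adjacent tested gene that was also called higher and with which they share no exon bases, against 6.16% of all tested genes that had such a neighbour. Of the 503 called lower, 58 (11.5%) had an adjacent lower gene, against 6.5% of all tested genes. The ecdysteroid kinase-like genes CG31288 and CG13659, and Arc1 with CR10102, are examples among the largest increases. Across chromosome arms the share called higher ran between 3.34% on X and 5.49% on the small chromosome 4, and the share called lower between 3.30% on chromosome 4 and 5.15% on X. These are descriptions without a test, and counts without strand do not separate transcripts that overlap.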
